A study of Mus musculus with 4 samples.

Results

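The genes described here are 9 tight junction genes of mouse keratinocytes (KCs): the claudin genes Cldn1, Cldn3, Cldn4, Cldn6, Cldn7, Cldn9 and Cldn23, the occludin gene Ocln, and Tjp1, which encodes ZO-1. They were picked by symbol from a list of claudin and junction genes, and all 9 were found among the 25814 genes of the deposited tables. Polyadenylated RNA was sequenced from 4 libraries of untreated KCs, grown in vitro from the tail skin of adult 129/sv mice in serum-free medium with 0.06 mM Ca++. By their labels, 2 libraries were Wildtype (WT) and 2 were Nfat5-Knockout, from mice with a disrupted gene for the transcription factor NFAT5. The WT mice were siblings of the mutants. The mutant mice lack NFAT5 in all tissues and not in the skin alone, so the KCs came from animals that had lived without it. The study compared the genotypes to ask how NFAT5 affects transcription in KCs.

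Tight junctions close the gap between neighbouring epithelial cells. Claudins are small proteins that cross the membrane and pair with claudins of the next cell, and the set of claudins that a cell makes decides which ions and solutes pass between the cells. Occludin is a further membrane protein of these strands. ZO-1 lies below the membrane and ties both to the actin skeleton. In the epidermis, functional tight junctions form in the granular layer, whereas proliferating basal KCs express several junction genes without closed strands, and low Ca++ keeps cultured KCs in a basal state. NFAT5, also called TonEBP, is best known as the factor that switches on genes for the uptake of osmolytes in hypertonic surroundings.

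Depth lay between 16219445 and 23494436 gene reads per library, so that the floor used here, the 3 reads that a count of 0 still allows, equalled 0.128 to 0.185 CPM (counts scaled to the library total). It covers counting error only. The basal keratin Krt14 stood between 5148 and 6985 RPKM (reads per exon length and per mapped reads) in the 4 libraries, although Krt15, a further basal keratin, did not exceed 0.440 RPKM. The Nfat5 gene itself had 408 and 929 reads in WT and 715 and 770 in the Nfat5-Knockout libraries, with an edgeR adjusted p of 0.913. Reads of the targeted gene therefore did not separate the labels, the counts do not show which exons were read, and each direction below rests on the labels, which the names WT and Nfat5-Knockout repeat. The study checked the loss of NFAT5 in such KCs at the protein level, by western blot, which is not among the data used here. WT replicate 1 stood apart by 1400 reads of 4 Y-linked genes, against 1 to 4 reads in each other library. Changes of the members are therefore also given without it.

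The 9 genes covered more than 3 orders of magnitude in level. RPKM is scaled to exon length, so levels may be set side by side between genes. Cldn4 encodes a sealing claudin and stood highest, with 728 and 887 RPKM in WT replicates 1 and 2 and 809 and 825 RPKM in the Nfat5-Knockout libraries. Cldn1, whose protein is indispensable for the water barrier of the epidermis, came next with 179 and 139 RPKM in WT, against 134 and 155 RPKM in the Nfat5-Knockout libraries. In both genes the groups overlapped.

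Below these, the WT levels fell in the order Cldn3, Cldn7, Tjp1, Ocln, Cldn23, Cldn6 and Cldn9. Cldn3 (30.4 and 52.4 RPKM) and Cldn7 (24.6 and 38.5 RPKM) overlapped in WT when the libraries are pooled, although Cldn3 was the higher of the pair within each WT library. All other neighbours in this order were apart in both WT libraries. In the Nfat5-Knockout libraries, Cldn3 (128 and 96.8 RPKM) lay above Cldn7 (51.1 and 28.9 RPKM) without overlap. There, Cldn6 (5.02 and 2.33 RPKM) overlapped Cldn23 (4.16 and 3.60 RPKM), which in WT was higher than Cldn6 in both libraries.

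**Figure D1:**
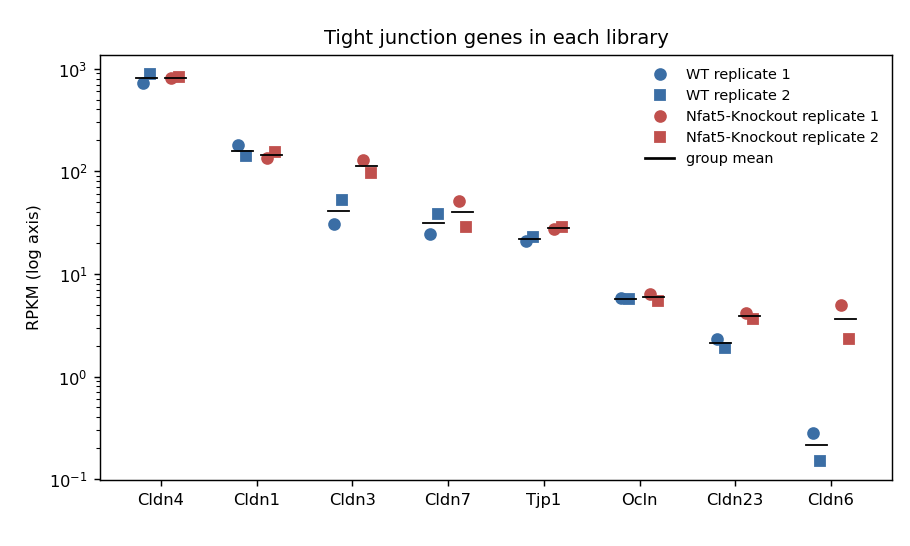
Level of the tight junction genes in each library, in RPKM on a log axis, with circles for replicate 1, squares for replicate 2 and a line for the group mean of 2 libraries. Cldn4 and Cldn1 overlap between the groups, Cldn3, Cldn23, Tjp1 and Cldn6 are higher in both Nfat5-Knockout libraries, and Cldn9, at 0 reads in all 4 libraries, cannot be drawn on this axis.

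Cldn6 and Cldn3 were the members that rose past the threshold, and no member fell past it. A gene was past the threshold where its adjusted p was under 0.05 in edgeR's quasi-likelihood test on gene reads, adjusted over all 12614 genes tested. Of these genes, 1.27% were past it, and 0.943% with the Nfat5-Knockout libraries higher, against 2 of the 8 members tested. Cldn9 did not enter the test. Cldn6 entered it only through the Nfat5-Knockout libraries, in which it is high, so these counts describe the members and are no support for a shift of the whole set.

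Cldn6 (ENSMUSG00000023906, chr17:23679365-23682446, plus strand, GRCm38) encodes a claudin known from embryonic epithelia. It had 7 and 6 reads in WT, against 185 and 67 reads in the Nfat5-Knockout libraries. On the length-scaled measure this was 0.280 and 0.150 RPKM in WT against 5.02 and 2.33 RPKM. WT was thus close to the floor in both libraries, and the groups were far apart, although the 2 Nfat5-Knockout libraries differed from each other by more than a factor of 2. The log2 fold change was 4.05 (SE 0.51, edgeR adjusted p 0.0218), a 16.6-fold rise with a 95% interval from 7.20 to 38.1. Without WT replicate 1 it was 4.38, in a fit where only the Nfat5-Knockout libraries give the spread between replicates. Without Nfat5-Knockout replicate 1, the library with the most Cldn6 reads, it was 3.38 and no longer past the threshold. That fit holds 1 Nfat5-Knockout library.

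Cldn3 (ENSMUSG00000070473, chr5:134986214-134987472, plus strand, GRCm38) encodes a sealing claudin. Its exon length equals its gene length, so no intron is annotated. It had 637 and 1460 reads in WT and 3895 and 2326 reads in the Nfat5-Knockout libraries. Both of the latter were higher than both WT libraries, and WT replicate 1 was the lowest of the 4. Mean RPKM went from 41.4 ± 15.5 to 113 ± 22.4 (SD, n = 2 each), a ratio of 2.72. The log2 fold change was 1.46 (SE 0.25, edgeR adjusted p 0.0440), or 2.75-fold with a 95% interval from 1.84 to 4.10.

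The call of Cldn3 was close to the threshold and hung on single libraries. Without WT replicate 1 the log2 fold change was 1.13, and without WT replicate 2 it was 1.90. It was not past the threshold without Nfat5-Knockout replicate 1 (1.26) or replicate 2 (1.63). Each of these fits left 1 library in a group, so the other group alone gave the spread between replicates. Cldn3 also missed the threshold with limma-trend on log2(RPKM + 0.1) (limma adjusted p 0.0524). Direction was the same in each of these fits, and Cldn3 was higher in every Nfat5-Knockout library than in every WT library. All exon reads of Cldn3 and Cldn6 were placed at a single site.

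**Figure D2:**
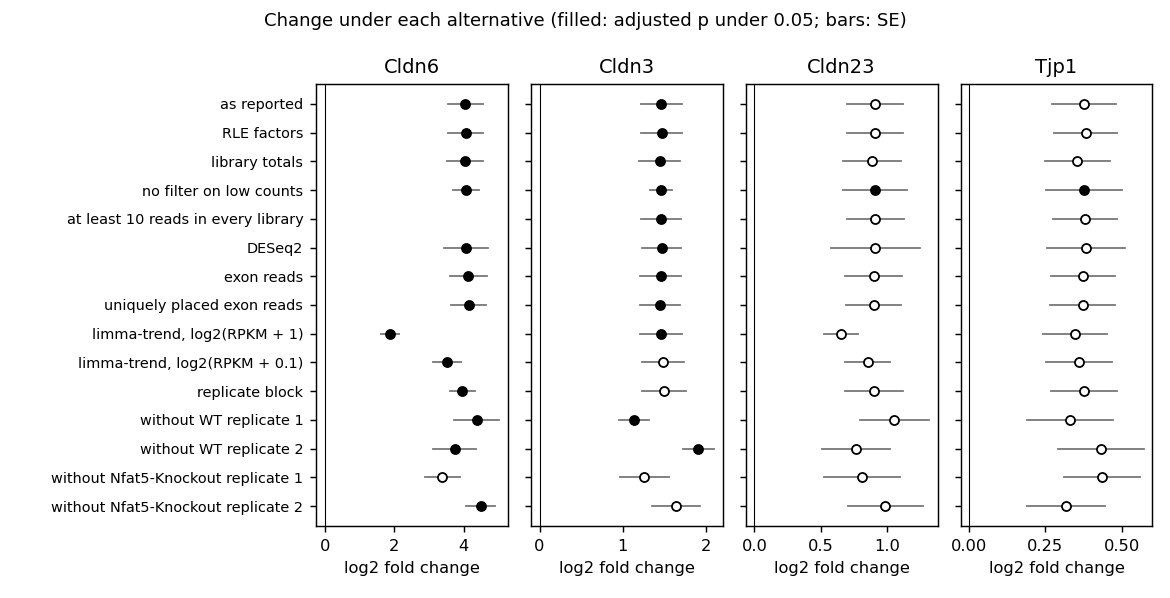
Log2 fold change (Nfat5-Knockout over WT) of Cldn6, Cldn3, Cldn23 and Tjp1 as reported and under each other setting, with SE bars, filled where the adjusted p is under 0.05. All points lie above 0. Cldn6 loses the call without Nfat5-Knockout replicate 1. Cldn3 loses it without either Nfat5-Knockout replicate, with the replicate block and with limma-trend on log2(RPKM + 0.1). A fit without a library leaves 1 library in its group, so the other group alone gives the spread between replicates. Cldn6 has no point at 10 reads in every library because its WT counts are 7 and 6.

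Cldn3 and Cldn4 are neighbours on chromosome 5, read away from each other, with 39279 bases between them, yet their RNA behaved differently. Cldn4 (ENSMUSG00000047501, chr5:134945119-134946934, minus strand) had 21966 and 35672 reads in WT and 35389 and 28592 reads in the Nfat5-Knockout libraries. Its log2 fold change was 0.04 (SE 0.12, edgeR adjusted p 0.921), with a 95% interval of the fold from 0.844 to 1.25. Cldn3 amounted to 4.18% and 5.90% of the Cldn4 RPKM in WT, and to 15.9% and 11.7% in the Nfat5-Knockout libraries. Cldn6 and Cldn9 are a second pair of neighbours, 137 bases apart on chromosome 17 and read towards each other. Cldn9 (ENSMUSG00000066720, chr17:23682584-23684018), a claudin known from the inner ear, had 0 reads in all 4 libraries, which allows up to 0.0868 to 0.126 RPKM.

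Promoter sequences are shown for Cldn3 and Cldn6, the genes that rose, and for Cldn4, the abundant neighbour that did not. They are the stretches just upstream of the transcript, 5′ to 3′ on the strand of the gene, from RefSeq on GRCm38.p6 (Cldn4 at chr5:134946935-134947184, minus strand, Cldn3 at chr5:134985964-134986213, plus strand, Cldn6 at chr17:23679115-23679248, plus strand). Capitals mark a match, on either strand, to a motif described after the sequences.
Cldn4: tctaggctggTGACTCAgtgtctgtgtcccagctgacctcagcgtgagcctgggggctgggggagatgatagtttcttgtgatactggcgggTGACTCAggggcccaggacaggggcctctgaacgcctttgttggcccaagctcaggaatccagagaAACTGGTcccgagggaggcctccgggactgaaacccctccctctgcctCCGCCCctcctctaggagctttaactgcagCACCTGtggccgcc
Cldn3: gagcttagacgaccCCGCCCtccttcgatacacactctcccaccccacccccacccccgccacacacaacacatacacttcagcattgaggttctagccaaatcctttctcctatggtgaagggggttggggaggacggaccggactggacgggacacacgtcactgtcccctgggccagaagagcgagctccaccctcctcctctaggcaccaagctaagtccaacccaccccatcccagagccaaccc
Cldn6: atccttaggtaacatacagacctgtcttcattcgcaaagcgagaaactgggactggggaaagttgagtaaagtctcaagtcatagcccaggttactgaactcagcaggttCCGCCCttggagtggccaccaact

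Motifs were searched on both strands in windows from 250 bases before to 50 bases after each RefSeq start, which 7 of the 9 genes had. The core of the Grainyhead-like site was searched as ACCNGTT, which 8.13% of all 32851 promoters hold. The core that NFAT sites share with the tonicity element bound by NFAT5 was searched as TGGAAA and occurs in 21.4% of promoters. For the E-box of the Snail and Zeb repressors the letters were CACCTG, found in 20.2% of promoters. The GC box of Sp and Klf factors was taken as GGGCGG, present in 35.7% of promoters. For the AP-1 site the letters were TGANTCA, present in 7.81% of promoters, and the TATA box was searched as TATAAA, present in 13.6%. Cldn4 held the Grainyhead-like core 92 bases upstream of the start, AP-1 sites 240 and 158 bases upstream, an E-box on either side of the start, and GC boxes. Cldn7, which did not pass the threshold, held a Grainyhead-like core 171 bases upstream of one RefSeq start and the core of NFAT sites 243 bases upstream of another, with neither window holding both. Among the members that rose, Cldn3 held a GC box 236 bases upstream and an E-box after the start, and Cldn6 held GC boxes, E-boxes and, after the start, the core of NFAT sites. The part of each window after the start, and for Cldn6 also the last stretch before it, lies in annotated transcript and is not printed. These letters were matched by sequence alone, and no binding was measured.

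Because Cldn4 and Cldn1 took most of the claudin RNA, the summed level of all 23 claudins of the tables changed little. It was 988 and 1146 RPKM in WT, against 1159 and 1133 RPKM in the Nfat5-Knockout libraries, a ratio of the means of 1.07. Cldn4 made up 73.6% and 77.4% of this sum in WT and 69.8% and 72.8% in the Nfat5-Knockout libraries. Cldn3 made up 3.08% and 4.57% in WT and 11.1% and 8.54% in the Nfat5-Knockout libraries, which placed it within reach of Cldn1 in replicate 1 (11.6%). Shares of Cldn6 stayed below 1% throughout, at most 0.433%. With 2 libraries against 2, an exact permutation test cannot give a p under 0.33, so the shares were not tested.

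**Figure D3:**
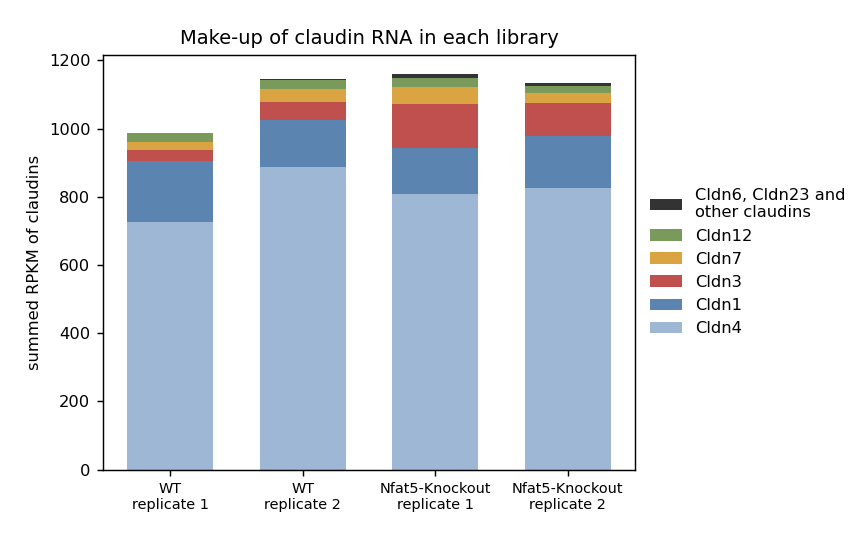
Summed RPKM of all claudins in each library, split by gene. The bars end between 988 and 1159 RPKM, Cldn4 fills at least 69.8% of each, and the Cldn3 segment is larger in both Nfat5-Knockout libraries.

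The remaining claudins did not pass the threshold. Cldn23 (ENSMUSG00000055976, chr8:35824712-35826559, minus strand) had 71 and 78 reads in WT and 185 and 127 in the Nfat5-Knockout libraries, without overlap. Its log2 fold change was 0.90 (SE 0.21, edgeR p 0.00333, adjusted p 0.104), with a 95% interval of the fold from 1.33 to 2.64. Cldn7 (ENSMUSG00000018569, chr11:69964779-69967885, plus strand), a claudin often found along the side membrane below the junction, had 800 and 1677 reads in WT and 2415 and 1081 reads in the Nfat5-Knockout libraries. The spread within each group was as wide as the difference between them (log2 fold change 0.36, SE 0.28, edgeR adjusted p 0.623). Cldn1 (ENSMUSG00000022512, chr16:26356642-26371841, minus strand) had 9695 and 10049 reads in WT against 10565 and 9644, and the log2 fold change was -0.11 (SE 0.15, edgeR adjusted p 0.777) and a 95% interval of the fold from 0.725 to 1.18.

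Occludin and ZO-1 differed in how far their values were apart. Ocln (ENSMUSG00000021638, chr13:100496507-100552718, minus strand) stood at 5.77 and 5.64 RPKM in WT, against 6.42 and 5.50 RPKM in the Nfat5-Knockout libraries, which enclosed the WT values. Its log2 fold change was 0.08 (SE 0.12, edgeR adjusted p 0.830), with a 95% interval of the fold from 0.861 to 1.29. Tjp1 (ENSMUSG00000030516, chr7:65296165-65527781, minus strand) stood at 20.9 and 22.8 RPKM in WT, against 27.2 and 28.8 RPKM in the Nfat5-Knockout libraries. These groups did not overlap, and the log2 fold change was 0.38 (SE 0.10, edgeR p 0.00817, adjusted p 0.161). Gm44794 and Gm44792, which overlap Tjp1 on the same strand, had 0 reads. Without WT replicate 1, the log2 fold change was 0.33 for Tjp1 and 1.05 for Cldn23. It was then 0.078 for Cldn7, 0.10 for Ocln, 0.087 for Cldn1 and -0.089 for Cldn4. With 1 WT library left, only the Nfat5-Knockout libraries give the spread between replicates, so no call is drawn from this fit.

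At an unadjusted p under 0.05 in edgeR, 4 members (Cldn3, Cldn6, Cldn23 and Tjp1) were higher in the Nfat5-Knockout libraries and 0 were lower, against 8.17% and 6.47% of all genes tested (14.6% in either direction). The same 4 were the members whose RPKM did not overlap between the groups with the Nfat5-Knockout libraries higher, a state shared by 21.6% of all genes tested (46.5% in either direction). By ratio of mean RPKM, Cldn3 and Cldn6 were at least 2-fold higher without overlap of the groups. Among the 9273 genes whose higher group averaged 2 RPKM or more, 1.67% were so (2.28% in either direction).

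The other 16 claudins were mostly silent. Cldn12, a claudin that lacks the usual tail for binding ZO proteins, was the only one of them with enough reads for the test. It stood at 24.3 and 26.3 RPKM in WT, against 26.6 and 21.1 RPKM in the Nfat5-Knockout libraries (log2 fold change -0.07, edgeR adjusted p 0.840), with overlapping groups. The second highest, Cldn8, known from tight epithelia of the kidney, had 0 reads in both WT libraries and 9 and 8 reads in the Nfat5-Knockout libraries. With WT set at the floor of 3 reads per library, the ratio of its mean CPM was 2.51. This allows for counting error in WT only. Over all 23 claudins, 6 had 0 reads in every library, 10 had 1 to 20 reads in the 4 libraries together, and 7 had more.

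Of 12 other membrane proteins of the junction, 8 were tested and 0 passed the threshold in edgeR. Crb3, a polarity protein of the apical membrane, was the only gene of these at an unadjusted p under 0.05 (log2 fold change 0.41, edgeR adjusted p 0.206). Of all genes tested, 8.17% were higher at that level. The median log2 fold change of the 8 was 0.18, against -0.01 over all genes tested. The most abundant were F11r, which encodes the adhesion molecule JAM-A, and Lsr, a protein of the contacts between 3 cells. F11r stood at 132 and 143 RPKM in WT, against 152 and 162 RPKM in the Nfat5-Knockout libraries, and Lsr at 105 and 118 RPKM against 120 and 125 RPKM. Neither passed (edgeR adjusted p 0.405 and 0.575). In both genes the Nfat5-Knockout libraries were higher without overlap, a state shared by 21.6% of all genes tested.

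Of 28 scaffold, polarity and signalling proteins, 27 were in the tables, 26 were tested and 0 passed the threshold in edgeR. At an unadjusted p under 0.05, 7 were higher and 1 was lower in the Nfat5-Knockout libraries, against 8.17% and 6.47% of all genes tested. The median log2 fold change of the 26 was 0.05, against -0.01 over all genes tested. Amot, whose protein angiomotin links polarity proteins to actin, stood at 0.985 and 0.850 RPKM in WT, against 1.87 and 3.32 RPKM in the Nfat5-Knockout libraries. The groups did not overlap and the ratio of the means was 2.83, but the edgeR adjusted p was 0.0630 (fold 2.82, 95% interval from 1.77 to 4.49). Without WT replicate 1, which leaves 1 WT library, the log2 fold change of Amot was 1.61. Tjp3, which encodes ZO-3, a relative of ZO-1, was read 4 and 9 times in WT but 47 and 23 times in the Nfat5-Knockout libraries, without overlap (log2 fold change 2.26, edgeR adjusted p 0.0811). As with Cldn6, Tjp3 entered the test through the libraries in which it is high. Cgn, the gene of the junction plaque protein cingulin, was higher without overlap (fold 1.46, edgeR adjusted p 0.0796). The gene that was lower was Arhgef2, which encodes the junction-bound protein GEF-H1, at 31.6 and 28.2 RPKM in WT, against 21.7 and 20.05 RPKM (fold 0.708, edgeR adjusted p 0.0880). The most abundant genes of this list were Ybx3, which encodes the ZO-1-binding protein ZONAB, and the polarity gene Pard6g. Ybx3 was at 401 and 345 RPKM in WT, against 369 and 316 RPKM (edgeR adjusted p 0.741). Pard6g was at 56.1 and 66.8 RPKM against 60.2 and 66.5 RPKM (edgeR adjusted p 0.858), and in both genes the groups overlapped.

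Of 16 transcription factors known to act on junction genes, 13 were tested and Grhl3 alone passed the threshold. GRHL3 is a Grainyhead-like factor needed for the epidermal barrier. Its RNA stood at 2.72 and 3.22 RPKM in WT, against 6.52 and 6.37 RPKM in the Nfat5-Knockout libraries. The WT and labelled knockout libraries were far apart relative to their spread, and the log2 fold change was 1.11 (SE 0.15, edgeR adjusted p 0.0252). The log2 fold change of Grhl3 was 1.01 without WT replicate 1, and 1.11 without Nfat5-Knockout replicate 1 or without replicate 2. Grhl3 did not pass without either Nfat5-Knockout library. Each of these fits left 1 library in a group. Grhl1, a relative of Grhl3, was 2.01-fold apart (95% interval from 1.38 to 2.92) and did not pass (edgeR adjusted p 0.102). Without WT replicate 1, its log2 fold change was 1.31. All 13 had a log2 fold change above 0, as had 48% of all genes tested, and their median was 0.17. At an unadjusted edgeR p under 0.05, 3 of the 13 were higher and 0 were lower, against 8.17% and 6.47% of all genes tested. For the other 10 it was not under 0.05. Past the threshold with the Nfat5-Knockout libraries higher were 0.943% of all genes tested. The most abundant were Klf4, a factor of the epidermal barrier, and Snai2, a repressor of the Snail family. Klf4 was at 35.8 and 30.2 RPKM in WT, against 35.3 and 37.6 RPKM, with overlap (edgeR adjusted p 0.591). Snai2 was at 28.5 and 28.0 RPKM against 30.3 and 31.1 RPKM, without overlap (edgeR adjusted p 0.592).

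**Figure D4:**
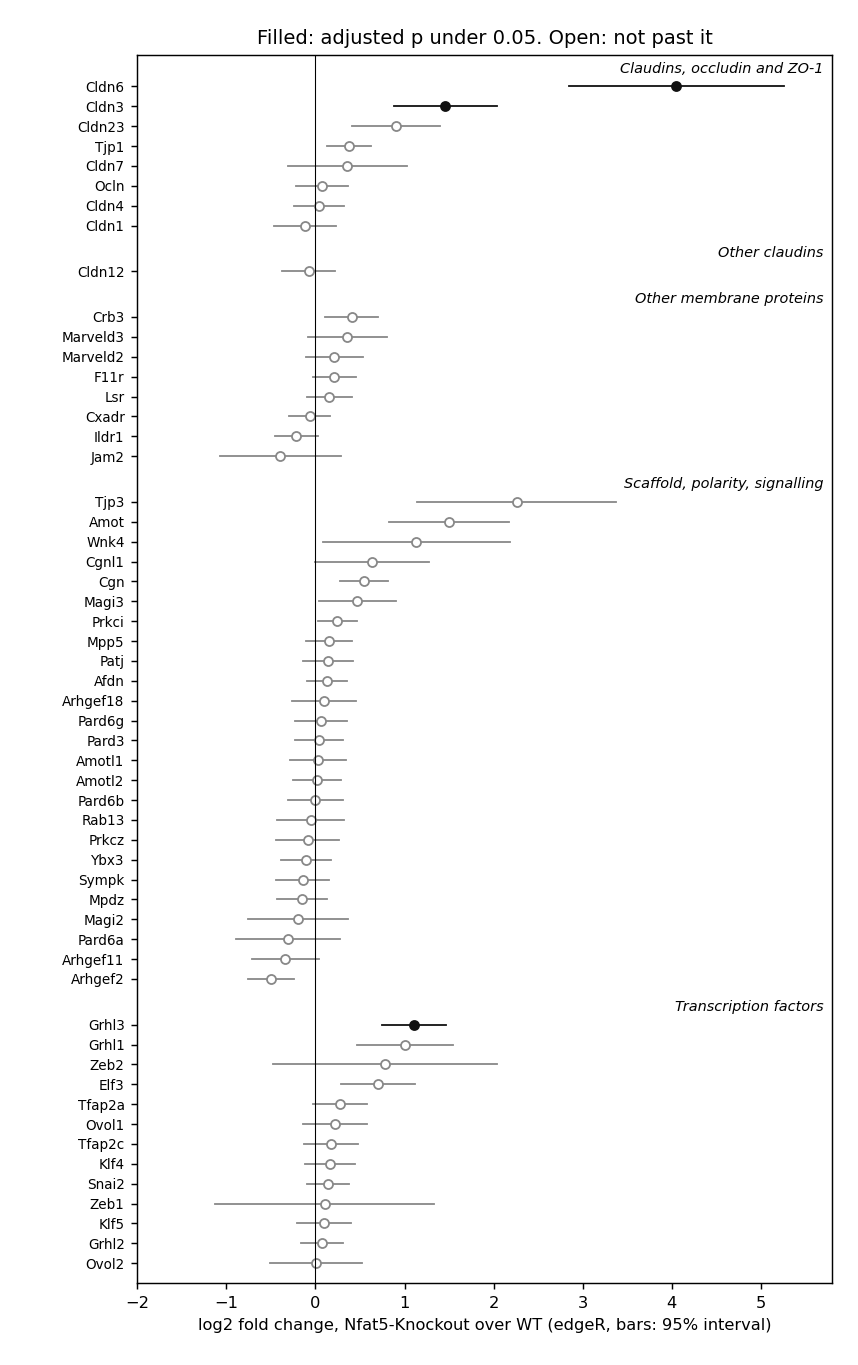
Log2 fold change (Nfat5-Knockout over WT) of the tested genes of the junction lists that are reported here, with 95% intervals and filled points where the edgeR adjusted p is under 0.05. Cldn6, Cldn3 and Grhl3 are the filled points, and the other genes with intervals away from 0 did not pass after adjustment.

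The genes whose profile over the 4 libraries was most like that of Cldn3 were Celf2, Slfn2 and H2-Aa, with root mean square distances of 0.0866, 0.0976 and 0.130 between log2 CPM profiles centred on their own means. Celf2, which encodes an RNA-binding protein, had 120 and 236 reads in WT and 649 and 410 reads in the Nfat5-Knockout libraries. Of these Celf2 reads, 71 and 153 in WT and 267 and 188 in the Nfat5-Knockout libraries lay in introns. Slfn2 and H2-Aa rested on 3 to 52 reads per library. Nearest to Cldn6 were Slc5a1, Lhfpl1 and Gjb6, at distances of 0.352, 0.367 and 0.373. Slc5a1, the sodium-glucose transporter SGLT1, had 25 and 19 reads in WT and 304 and 134 in the Nfat5-Knockout libraries, and Gjb6, the gap junction gene for connexin 30, had 8 and 7 against 109 and 62. Lhfpl1 had 1 and 2 reads in WT, and 58 of its 61 reads in Nfat5-Knockout replicate 1 and 32 of its 36 in replicate 2 lay in introns. Since these genes were chosen for a profile like that of a gene that rose, no test of them is given. The likenesses are descriptions over 4 libraries and share the same reads and depth.

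Some lists of markers of cell types and states also differed between the groups. Within the Nfat5-Knockout group, Cldn3 and Cldn6 were higher in replicate 1. The simple epithelial, differentiating and smooth muscle sums below were higher in replicate 2. Of all genes tested, 1.27% were past the threshold, and 0.943% with the Nfat5-Knockout libraries higher. Of 7 simple epithelial markers 6 were tested and 3 rose (Krt7, Krt8 and Krt18), while Muc1 had 0 to 2 reads. The summed level of the list was 715 to 1053 RPKM in WT, and 1843 to 1981 RPKM in the Nfat5-Knockout libraries. At an unadjusted edgeR p under 0.05, 5 of the 6 were higher, against 8.17% of all genes tested. Krt19, among these 5, entered the test only through the Nfat5-Knockout libraries (29 and 28 reads, against 2 and 9 in WT). Epcam, an abundant marker of this list, overlapped between the groups (307 and 379 RPKM in WT, against 348 and 300.0 RPKM, log2 fold change -0.06, edgeR adjusted p 0.871). Of 9 markers of differentiating KCs 3 rose (Cnfn, Sprr1a and Sprr1b), with sums of 65.5 to 93.4 RPKM against 209 to 287 RPKM. Of the 9, 8 had a log2 fold change above 0, as had 48% of all genes tested. At an unadjusted edgeR p under 0.05, 6 were higher, against 8.17% of all genes tested. Krt1, among these 6, entered the test only through the Nfat5-Knockout libraries (16 and 38 reads, against 7 and 8 in WT). Krt10 had a log2 fold change of -0.49 and did not pass (edgeR adjusted p 0.547). Of 5 smooth muscle markers 4 were tested and rose (Acta2, Tagln, Cnn1 and Myh11, the last with 1 read in each WT library and thus in the test only through the Nfat5-Knockout libraries), with sums of 151 to 184 RPKM against 518 to 819 RPKM, whereas Des had 0 or 1 read. Of 5 melanocyte markers 4 were tested and Tyrp1 fell, with sums of 6.99 to 7.29 RPKM against 2.04 to 2.89 RPKM. At an unadjusted edgeR p under 0.05, 3 of the 4 were lower, against 6.47% of all genes tested. None of the 7 basal KC markers passed the threshold in edgeR, though 1 was lower at an unadjusted p under 0.05, and their sums overlapped (11122 to 12871 RPKM in WT, 11064 to 12648 RPKM in the Nfat5-Knockout libraries). Fibroblast, endothelial, immune and Merkel cell markers, of which 2, 2, 1 and 1 were tested, had none past the threshold or under an unadjusted p of 0.05 in edgeR, and summed to at most 2.41 RPKM per list. Atoh1, which defines Merkel cells, had 0 reads. The part of any of these in the values of Cldn3, Cldn6 and Grhl3 was not tested, and in RNA from whole cultures a change in the share of a cell type cannot be told apart from a change of RNA per cell.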

How the data were processed

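Total, exon and intron reads per gene were deposited as raw counts, and RPKM (reads scaled to exon length and mapped reads) was deposited with decimal commas. The authors trimmed the reads and mapped them to GRCm38 in CLC Genomics Workbench at default settings. Use of strand is not stated, so overlapping and antisense genes cannot be told apart. Groups and replicate numbers came from the sample titles. Replicates differed by more than sampling noise (chi-square per degree of freedom 16.7 in WT, 17.3 in Nfat5-Knockout). P-values measure the spread between 2 libraries per group, of which the labels give no animal numbers.

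Total gene reads were tested with edgeR 4.0.16 (R 4.3.3): filterByExpr, TMM factors, a quasi-likelihood fit with genotype as the only term, two-sided, Benjamini-Hochberg adjustment over 12614 genes and a threshold of 0.05. A log2 fold change is Nfat5-Knockout minus WT, and its SE is the change over the square root of F. The script was tested on simulated data. Alternatives were RLE factors, library totals, no filter, at least 10 reads in every library, DESeq2 1.42.0, exon reads, uniquely placed exon reads, limma-trend 3.58.1 on log2(RPKM + 1) and log2(RPKM + 0.1), a replicate block, a threshold of 0.1 and each library left out. The members, lists and tests were chosen with earlier results of these data known. Genes named are all members, and of the other junction lists those past the threshold, those at least 2-fold apart in mean RPKM without overlap (and whose higher mean was 2 RPKM or more), and the 2 most abundant. Marker lists are given by their summaries, with single markers beside them. Crb3, Tjp3, Cgn, Arhgef2, Grhl1 and Cldn11 were named after their values were seen, as were Krt15, Epcam and Krt10 among the markers. Gene coordinates are those of the tables, and 7 of 9 members have the same start and end in GENCODE M21. Magi1, Itgam, Xist and protein sequences were not analysed here, and 1 scaffold gene, counted in its list, is left out of the text and plots.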

Additional observations from a re-analysis of the deposited data

Results flagged for a closer look

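Reads that span 2 exons are part of the gene reads tested, and were not compared on their own in the report. Cldn6 had 0 such reads in both WT libraries and 15 and 2 in the Nfat5-Knockout libraries, 17 together. Tjp1 had 503 and 788 in WT and 1121 and 954 in the Nfat5-Knockout libraries, 2075 together. Scaled to the library total this was 31.0 and 36.5 CPM for Tjp1 in WT and 47.7 and 51.2 CPM in the Nfat5-Knockout libraries. These reads, given in a column of their own, drew attention because they were above the level of the WT libraries in both Nfat5-Knockout libraries for Tjp1, and in Nfat5-Knockout replicate 1 for Cldn6. The 2 reads of Cldn6 in Nfat5-Knockout replicate 2 lie under the 3 reads that a count of 0 allows. In the other members with introns the groups overlapped, with 40.4 and 33.9 CPM in WT against 34.0 and 35.9 CPM for Cldn1, 9.68 and 17.3 against 20.3 and 10.7 CPM for Cldn7, and 4.62 and 4.81 against 5.62 and 3.86 CPM for Ocln. The differences in these reads were not tested, and the share of all genes that were apart in them was not computed. By RPKM, 21.6% of all genes tested were higher without overlap in the Nfat5-Knockout libraries.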

How the results depend on the processing

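The count of 160 genes past the threshold was 1137 with no filter on low counts, 416 in DESeq2 and 364 at a threshold of 0.1, and 16 to 478 with single libraries left out (16 without Nfat5-Knockout replicate 2, 31 without Nfat5-Knockout replicate 1, 268 without WT replicate 1 and 478 without WT replicate 2). Of the members, 4 passed with no filter, which added Cldn23 (0.91, edgeR adjusted p 0.00485) and Tjp1 (0.38, edgeR adjusted p 0.0423), and 1 passed with at least 10 reads in every library (Cldn6 has no value there), with limma-trend on log2(RPKM + 0.1) or with the replicate block, and 0 to 2 with single libraries left out. Cldn3 was not past the threshold with limma-trend on log2(RPKM + 0.1) (1.48, adjusted p 0.0524), and ranged from 1.13 to 1.90 with single libraries left out. Cldn6 ranged from 3.38 to 4.48 then, and was 1.88 with limma-trend on log2(RPKM + 1), where low values are compressed. Its edgeR, DESeq2 or limma adjusted p ran from 1.1e-24 to 0.0908. Signs turned without WT replicate 1 for Cldn1 (0.087, range -0.29 to 0.087) and Cldn4 (-0.089, range -0.089 to 0.18), and without Nfat5-Knockout replicate 1 for Cldn7 (-0.094, range -0.094 to 0.72) and Ocln (-0.019, range -0.019 to 0.16), none of which was past the threshold. Library totals, in place of TMM factors, moved the median of all genes to -0.03.

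Among scaffold genes, where 0 passed, 5 passed with no filter, 4 in DESeq2 and at a threshold of 0.1, 1 with library totals or uniquely placed exon reads, and 0 to 1 with single libraries left out. Among transcription factors 3 passed with no filter, 2 in DESeq2, and 0 to 2 with single libraries left out, with 0 without either Nfat5-Knockout library. Of the other claudins 1 passed with no filter. The RPKM ratio list held 120 genes with a floor of 5 RPKM, against 211. Same-numbered libraries did not deviate together (correlation -0.065). With 2 libraries per group this cannot settle whether they are paired, and the labels do not say. With the replicate block, 132 genes passed, 109 of them shared with the 160, and Cldn3 was 1.49 (adjusted p 0.0662). The causes were not tested. Depth limits what can be said of Cldn6 in WT and of the silent claudins. The planned description of protein sequences was not run.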

Other observations

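Claudin genes with few reads were left out of the test by the filter on low counts. Cldn8 had 9 and 8 reads in the Nfat5-Knockout libraries and 0 in both WT libraries, where a count of 0 allows up to 0.185 and 0.139 CPM. Cldn11, known from myelin and the testis, had 3 and 1 reads in the Nfat5-Knockout libraries and 0 in WT, which is at or under the floor in both groups. Intron reads, which can come from RNA not yet spliced, were few in every member. Over the 4 libraries they numbered 26 to 51 for Cldn1, 37 to 47 for Tjp1, 4 to 17 for Cldn7, 6 to 10 for Ocln and 0 to 3 for Cldn6. Cldn6 showed 0 and 1 intron reads in WT against 3 and 0 in the Nfat5-Knockout libraries, so the groups overlapped.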
